A study of Mus musculus with 14 samples.

Results

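Astrocyte marker genes are the 10 genes Gfap, Aqp4, Slc1a2, Slc1a3, Gja1, Gjb6, Aldoc, S100b, Glul and Aldh1l1, chosen by name from the 22485 gene symbols of the deposited count table. All 10 were present there, and all 10 passed the filter on low counts that left 13063 genes for testing. The study asked how protease treatment of tissue before RNA isolation alters the transcripts measured in the mouse hippocampus. Tissue of the CA1 field, the CA3 field and the dentate gyrus (DG) was either homogenised directly (control) or kept in artificial cerebrospinal fluid with pronase, a mixture of proteases, and then vortexed, centrifuged and triturated (dissociated). All groups came from wild-type C57BL/6 tissue with no transgene or other agent, and the labels used here give no age. The deposited sample table gives 1 mouse, 1 date and 1 sequencing job for all 14 libraries, and the sample titles name the same mouse. Library names, however, start with 100 in every control and 101 in every dissociated library, and the sources used here do not say what this number marks. Every p-value therefore covers only variation among pieces of tissue, and whatever the number marks cannot be told apart from treatment. CA1 had 3 libraries per treatment, and CA3 and DG had 2 each.

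Astrocytes are the glial cells that wrap synapses and blood vessels. They take glutamate out of the synaptic cleft through the transporters GLT-1 (Slc1a2) and GLAST (Slc1a3) and turn it into glutamine with glutamine synthetase (Glul). They also buffer potassium and water through endfeet rich in the water channel Aqp4, share small molecules through gap junctions of connexin 43 (Gja1) and connexin 30 (Gjb6), and carry the intermediate filament protein GFAP, which astrocytes make in larger amounts when tissue is injured. In bulk RNA a lower or higher level can come from the number of astrocytes in a sample or from the RNA per cell, and these cannot be told apart here.

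Control libraries held between 1285654 and 6646655 estimated counts, and dissociated ones between 65887 and 4782767. The dissociated libraries CA1 replicate 2, CA1 replicate 3 and DG replicate 3 held under 500000 counts (135065, 300812 and 65887), and the lowest member counts come from them. Levels are given as CPM, the counts divided by a library size scaled by TMM, and as TPM, which also divides by transcript length, where genes of different length are compared. All 10 genes had counts in every control library, from 31 counts of Gjb6 upward. Summed over the 10 genes, the controls spanned 2767 to 4794 CPM and the dissociated libraries 2970.0 to 9686 CPM.

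None of the 10 genes passed an adjusted p of 0.05 (edgeR's quasi-likelihood test, Benjamini-Hochberg) between dissociated and control tissue, while 0.773% of all tested genes did. All 10 fitted log2 fold changes were positive, with a median of 0.75, where the median over all tested genes was -0.11 and 41.9% of genes were positive. The members' median was 0.45 without CA3 dissociated replicate 4 and 0.24 by limma on log2(TPM + 1), a scale where the median over all genes was -0.64. At an unadjusted p under 0.05 the count was 7 of 10, against 12.4% of all genes, and DESeq2 called 3 (Glul, Aldoc and S100b) where it called 3.66% of all genes. The gene nearest to the threshold was Glul, at 0.81 ± 0.21 (SE) and an adjusted p of 0.0800. Between regions, none of the 10 passed either.

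**Figure D1:**
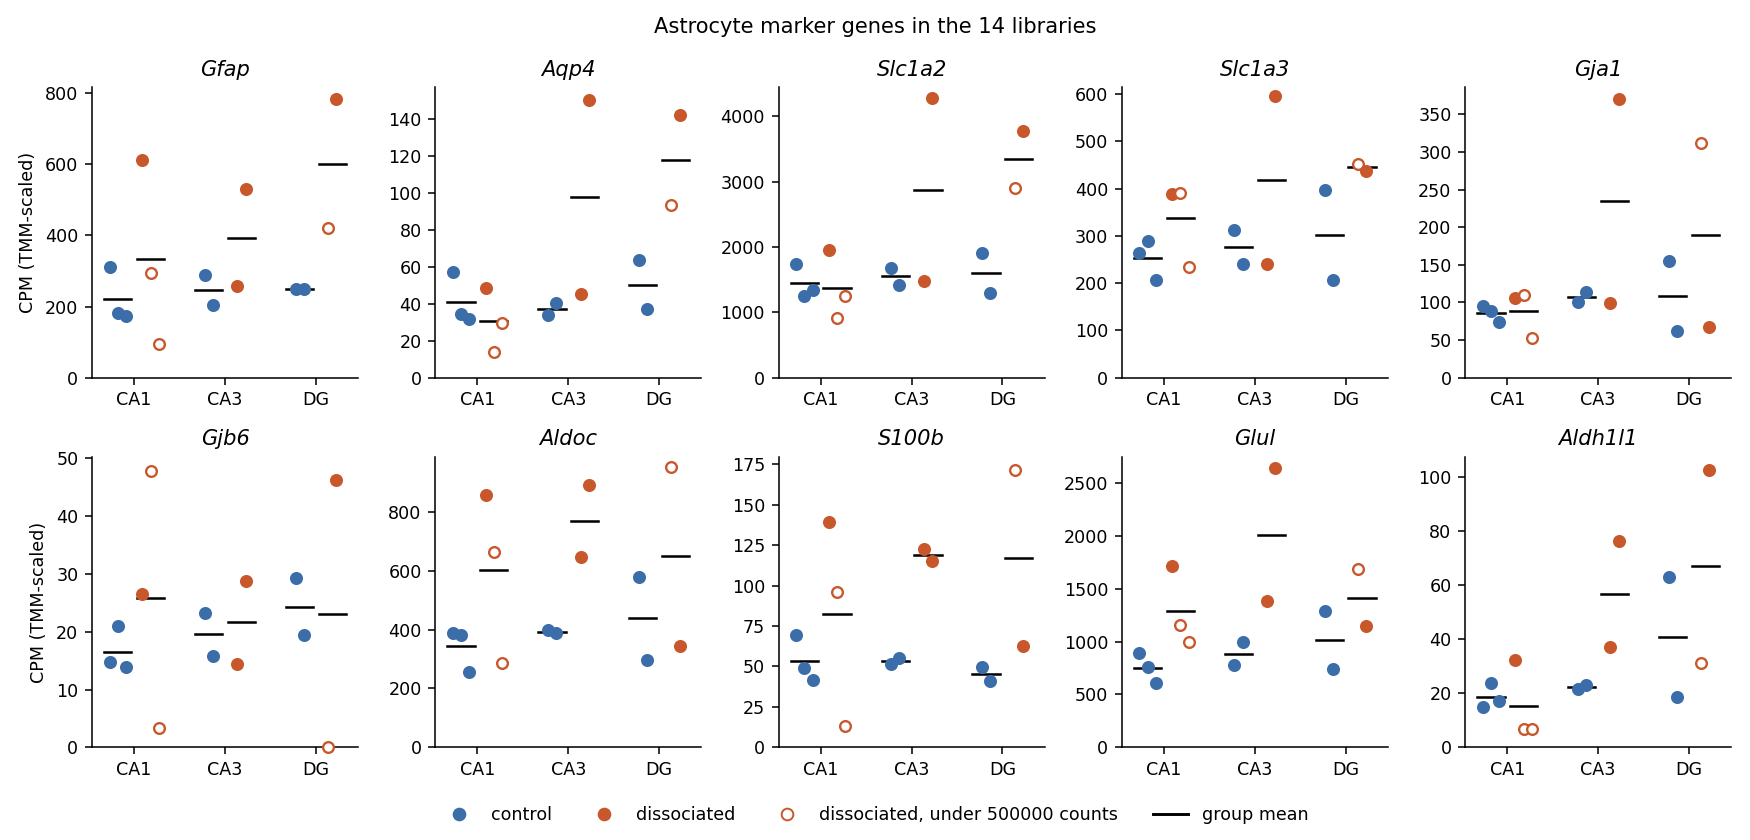
CPM of the 10 genes (1 panel each, linear axis from 0) in each of the 14 libraries by region. Blue points are control libraries, orange points dissociated ones, open points dissociated libraries with under 500000 counts, and black bars group means. Dissociated points spread more widely than control points, with CA3 replicate 4 the highest dissociated library for 5 genes and CA1 replicate 3 the lowest for 7.

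GFAP and GLT-1 are each made in more than 1 form, and the transcript tables separate them. The Gfap gene (ENSMUSG00000020932, chr11:102887336-102900912, minus strand, GRCm38) had 2 transcripts in the files, Gfap-001 (ENSMUST00000067444.9) and Gfap-201 (ENSMUST00000077902.4). Their coding sequences share the first 1162 bases and then differ. Gfap-001 carries the ending of the common GFAP-alpha filament protein. Gfap-201 ends within its own exon 8 of 8 (chr11:102891396-102891520), which is the alternative ending known as GFAP-delta, a form described in neural stem cell niches. That ending, read from GENCODE M21, shows the bases that tell Gfap-201 from Gfap-001. The last 24 shared coding bases are in lower case and the bases of its own ending, down to the stop codon, in capitals.
Gfap-201: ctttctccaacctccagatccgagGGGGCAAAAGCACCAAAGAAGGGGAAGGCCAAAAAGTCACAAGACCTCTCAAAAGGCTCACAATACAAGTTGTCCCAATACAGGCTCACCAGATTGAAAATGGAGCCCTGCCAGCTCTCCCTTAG

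The Slc1a2 gene (ENSMUSG00000005089, chr2:102658659-102790784, plus strand, GRCm38) had 7 transcripts in the files, of which 4 hold a whole coding sequence. Slc1a2-001 (ENSMUST00000080210.9) and Slc1a2-002 (ENSMUST00000111212.7) end in the way of the GLT-1a protein, and Slc1a2-003 (ENSMUST00000005220.10) and Slc1a2-004 (ENSMUST00000111213.7) in the way of GLT-1b, whose other carboxyl end binds PDZ proteins. The coding sequences of Slc1a2-001 and Slc1a2-004 share 1650 bases and then part, into the last of 11 exons (chr2:102781466-102781534) or the last of 10 (chr2:102777659-102777694). Slc1a2-002 differs from Slc1a2-001 at the start, where its coding sequence opens in another first exon (chr2:102706476-102706482, against chr2:102659285-102659300). The endings are shown first and the starts next, from GENCODE M21, with the 24 shared bases next to the point where the forms part in lower case and the rest of each end or start in capitals. The capitals of both starts open with the same 4 bases.
Slc1a2-001 end: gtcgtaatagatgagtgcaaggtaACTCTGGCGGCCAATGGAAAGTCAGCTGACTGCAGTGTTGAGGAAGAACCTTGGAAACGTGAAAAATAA
Slc1a2-004 end: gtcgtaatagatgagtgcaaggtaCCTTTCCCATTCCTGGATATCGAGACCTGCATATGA
Slc1a2-001 start: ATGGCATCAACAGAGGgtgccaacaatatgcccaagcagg
Slc1a2-002 start: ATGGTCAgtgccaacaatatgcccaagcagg

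Glutamate uptake and its conversion to glutamine are the work of Slc1a2, Slc1a3 and Glul. In CA1, Slc1a2 stood at 1744, 1246 and 1340.2 CPM in control replicates 1, 2 and 3 and at 1954, 916 and 1251 CPM in dissociated replicates 1, 2 and 3. In CA3 it stood at 1681 and 1425 CPM in control replicates 1 and 4 and at 1484 and 4279 CPM in dissociated replicates 1 and 4. In DG it stood at 1914 and 1296 CPM in control replicates 2 and 3 and at 2903 and 3784 CPM in dissociated replicates 3 and 4. Both dissociated DG libraries lay above both controls, while the groups overlapped in CA1 and CA3, where replicate 4 alone was high. Over all regions Slc1a2 differed by a log2 fold change of 0.53 ± 0.25 (SE, n = 7 against 7, edgeR adjusted p = 0.388). It was 0.27 without CA3 dissociated replicate 4, 0.87 without the 3 libraries under 500000 counts and 0.13 by limma on log2(TPM + 1).

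Glul (ENSMUSG00000026473, chr1:153899944-153909723, plus strand) gave the smallest p of the 10 genes. Its CA1 levels were 889, 757 and 612 CPM in the control replicates and 1717, 1163 and 997 CPM in the dissociated ones. Its CA3 levels were 777 and 996 CPM in control and 1381 and 2649 CPM in dissociated replicates, and its DG levels 1294 and 742 CPM against 1686 and 1144 CPM. Every dissociated library was above every control library in CA1 and in CA3, and in DG the groups overlapped through control replicate 2. Glul was the only member separated in this way in CA1, where 7.16% of all tested genes were. The mean level was 867 ± 224 CPM over the controls and 1534 ± 563 CPM after dissociation (SD, n = 7 each). The fitted log2 fold change of 0.81 ± 0.21 (SE) did not pass (edgeR adjusted p = 0.0800), and it did pass, at an adjusted p of 0.0202, without DG control replicate 2, and at 0.0258 with RLE scaling in place of TMM. Slc1a3 (ENSMUSG00000005360, chr15:8634124-8710764, minus strand) ran from 207 to 397 CPM with a median of 264 in control and from 234 to 595 CPM with a median of 389.8 in dissociated libraries. Its groups overlapped in CA1 and CA3 and were apart in DG, at 397 and 208 CPM in control against 453 and 438 CPM. Its log2 fold change was 0.51 ± 0.22 (SE, edgeR adjusted p = 0.357), or 0.31 without CA3 dissociated replicate 4.

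The filament protein gene Gfap and the calcium-binding protein gene S100b (ENSMUSG00000033208, chr10:76253853-76261159, plus strand) had the highest fitted fold changes. Gfap stood at 311, 182 and 173 CPM in the CA1 control replicates and at 612, 294 and 95.7 CPM in the dissociated ones. In CA3 the values were 289 and 205 CPM in control against 257 and 531 CPM, and in DG 249 and 249.9 CPM against 421 and 782 CPM. DG was the only region in which the Gfap groups did not overlap, and in CA1 the dissociated replicates held both the highest and the lowest value. Over all regions the log2 fold change of Gfap was 0.83 ± 0.30 (SE, edgeR adjusted p = 0.236). Without the 3 dissociated libraries under 500000 counts it was 1.22 (adjusted p = 0.0796).

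S100b was at 69.3, 48.9 and 41.6 CPM in the CA1 control replicates and at 139, 95.7 and 13.2 CPM in the dissociated ones, the last from 4 counts. It was at 51.5 and 55.01 CPM in CA3 controls against 123 and 115 CPM, and at 49.8 and 40.8 CPM in DG controls against 172 and 62.8 CPM. The groups were apart in CA3 and DG, and in CA1 only replicate 3 lay below the controls. S100b gave the highest fold change of the list, 0.95 ± 0.32 on the log2 scale (SE, edgeR adjusted p = 0.205), and it passed without CA1 dissociated replicate 3, at 1.15 with an adjusted p of 0.0291.

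Aldoc (ENSMUSG00000017390, chr11:78322968-78327781, plus strand) encodes the brain form of the glycolytic enzyme aldolase, and Aldh1l1 (ENSMUSG00000030088, chr6:90486427-90600203, plus strand) an enzyme of folate metabolism. Aldoc stood at 390.0, 383 and 257 CPM in CA1 controls and at 857, 663 and 287 CPM after dissociation. In CA3 it stood at 399 and 388 CPM against 647 and 892 CPM, and in DG at 578 and 297 CPM against 952 and 346 CPM. Only the CA3 groups were apart. The log2 fold change over all regions was 0.78 ± 0.25 (SE, edgeR adjusted p = 0.189), and it was 0.92 with an adjusted p of 0.0417 without DG dissociated replicate 4. Aldh1l1 was among the lowest members, at 14.8, 23.7 and 17.0 CPM in CA1 controls against 32.4, 6.84 and 6.60 CPM, the last 2 from 1 and 2 counts. It was at 21.4 and 22.9 CPM in CA3 controls against 37.0 and 76.2 CPM. In DG it was at 63.0 and 18.6 CPM in controls against 31.2 (from 2 counts) and 102 CPM. DG control replicate 2 stood apart from the other 6 controls, which ran from 14.8 to 23.7 CPM. Its log2 fold change with dissociation was 0.76 ± 0.38 (SE, edgeR adjusted p = 0.420), and the CA3 groups were the only ones apart.

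Of the endfoot and junction genes, Aqp4 followed Slc1a2 most closely. It stood at 57.2, 34.8 and 31.8 CPM in CA1 controls. The dissociated CA1 replicates were at 48.9, 13.7 and 29.7 CPM, the last 2 from 2 and 9 counts. In CA3 Aqp4 stood at 34.0 and 40.4 CPM against 45.2 and 151 CPM. In DG it stood at 63.8 and 37.1 CPM against 93.7 (from 6 counts) and 142 CPM. The groups were apart in CA3 and DG, whereas 2 of the 3 dissociated CA1 libraries lay below all CA1 controls. Its log2 fold change was 0.73 ± 0.34 (SE, edgeR adjusted p = 0.384) and was 0.37 (adjusted p = 0.728) without CA3 dissociated replicate 4. Gja1 (ENSMUSG00000050953, chr10:56377330-56402513, plus strand) ran from 62.1 to 155 CPM with a median of 94.8 in control and from 52.8 to 370.0 CPM with a median of 105 in dissociated libraries. Its groups overlapped in all 3 regions, and its log2 fold change was 0.52 ± 0.34 (SE, edgeR adjusted p = 0.564), or 0.14 without CA3 dissociated replicate 4 (adjusted p = 0.913) and 0.28 without DG dissociated replicate 3. Gjb6 (ENSMUSG00000040055, chr14:57123303-57133611, minus strand) ran from 13.9 to 29.3 CPM with a median of 19.4 in control and from 0 to 47.9 CPM with a median of 26.5 in dissociated libraries. The 0 is DG dissociated replicate 3, whose depth allows up to 46.8 CPM at 0 counts, so that a level like that of the controls was not detectable there. Gjb6 had the smallest fold change, 0.38 ± 0.42 (SE, edgeR adjusted p = 0.749), or 0.18 without DG dissociated replicate 4 and 0.25 without CA1 dissociated replicate 2, and was the only gene of the 10 whose sign turned when log2(TPM + 1) was tested by limma, at -0.74.

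**Figure D2:**
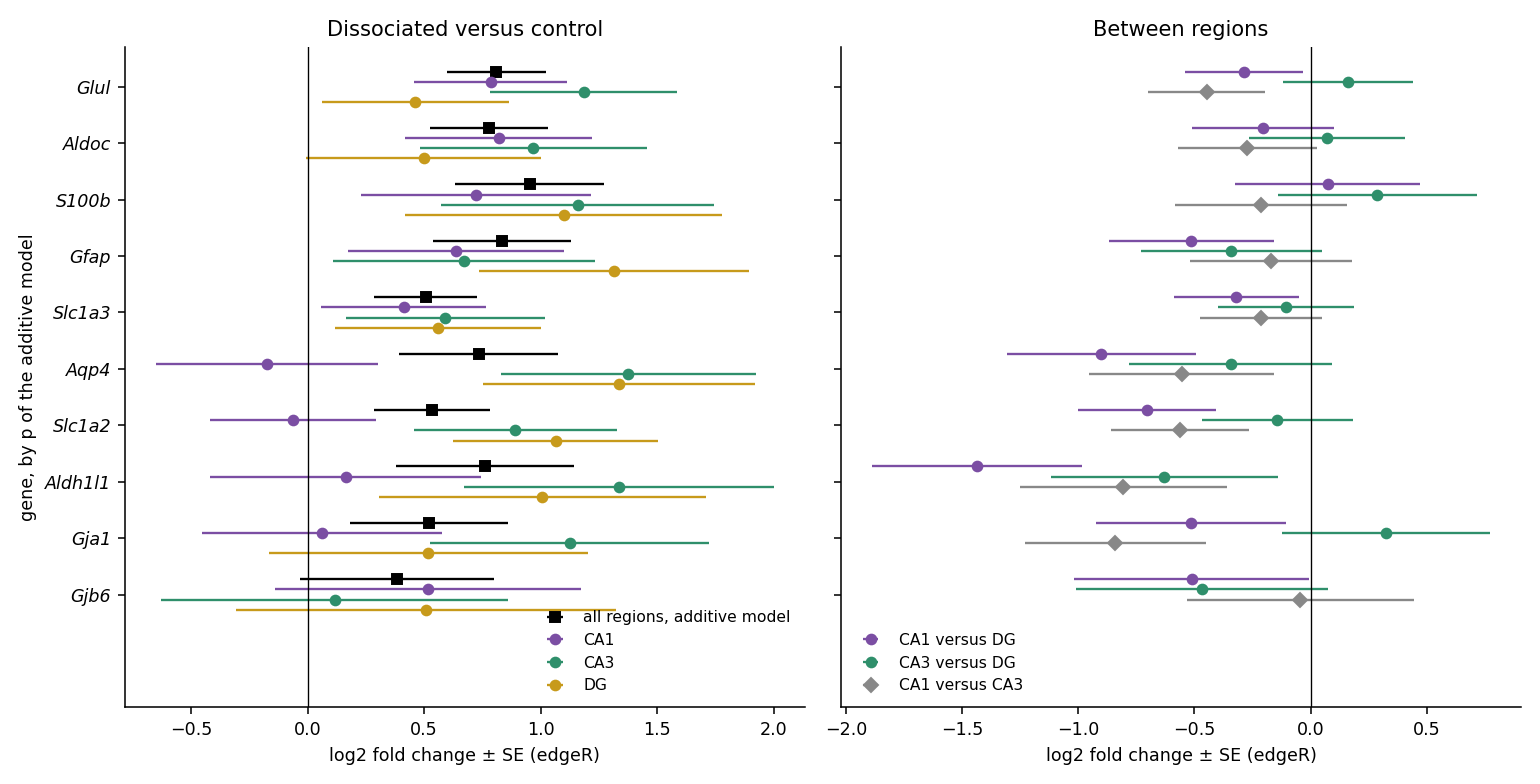
Log2 fold changes with their standard errors for the 10 genes, ordered by the p of the additive model, for dissociated against control tissue (left) and between regions (right). All 10 black squares on the left lie right of 0, from 0.38 for Gjb6 to 0.95 for S100b, and in CA1 against CA3 (grey) all 10 lie left of 0.

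Treatment was also fitted within each region, and the difference between regions was tested as an interaction. In CA1 the median log2 fold change of the 10 genes was 0.47 with 8 positive, against -0.06 over all genes, and none passed where 0.191% of genes did. In CA3 the median was 1.05 with 10 positive, against -0.05 over all genes, and none passed where the share was 0% of all genes. In DG it was 0.78 with 10 positive, against -0.27 over all genes, and none passed where 0.161% did. At an unadjusted p under 0.05 the counts were 1 of 10 in CA1, 2 in CA3 and 3 in DG, against 11.2%, 4.004% and 14.1% of all genes. DESeq2 called none in any region, and 1.58%, 0% and 0.796% of all genes. The interaction of treatment with region called none of the 10 and 0% of all genes by edgeR, with no member at an unadjusted p under 0.05 (8.51% of all genes) and none called by DESeq2 (0.199% of all genes). Its smallest member p was that of Aqp4, whose log2 fold changes were -0.17 ± 0.48 in CA1, 1.37 ± 0.55 in CA3 and 1.34 ± 0.58 in DG (SE, interaction adjusted p = 0.618, edgeR).

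In CA3, 5 of the 10 genes (Aqp4, Aldoc, S100b, Glul and Aldh1l1) had both dissociated libraries above both controls, where 15.7% of all genes were. In DG the 5 were Gfap, Aqp4, Slc1a2, Slc1a3 and S100b, against 8.25% of all genes. No member was apart in all 3 regions, and none was lower in every dissociated library of a region. CA3 dissociated replicate 4 was above both CA3 controls for all 10 genes, where 36.1% of all genes were. Replicate 1 of the same group was above them for 5 (29.5% of all genes) and below them for 2, Gja1 and Gjb6 (34.3%). In CA1, dissociated replicate 1 was above all controls for 9 genes (31.1% of all genes) and below for 0 (33.3%). Replicate 2 was above for 6 (31.7%) and below for 3 (52.2%), and replicate 3 above for 1, Glul (32.7%), and below for 6 (50.5%). The CA3 median was 0.20 with 6 genes positive when replicate 4 was left out, and the CA1 median was -0.19 with 4 positive when dissociated replicate 1 was left out. The DG median was 0.28 without DG control replicate 3 and 1.32 without DG control replicate 2, and 8 genes were positive when either 1 of the dissociated DG libraries was left out. Without the 3 libraries under 500000 counts, the CA1 median was 0.76 with 10 positive, from 1 dissociated library.

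Markers of other glia rose in the same comparison, and their sums stood beside the astrocyte sum as follows. All 12 oligodendrocyte markers were positive and 9 passed, with a median log2 fold change of 1.94. Trf, which carries iron, rose by 1.99 ± 0.28 (SE, edgeR adjusted p = 0.00158). All 12 microglial markers were positive and 8 passed, with a median of 1.71. The growth factor receptor gene Csf1r rose by 1.69 ± 0.23 (edgeR adjusted p = 0.00158). All 8 tested oligodendrocyte precursor markers were positive and 4 passed (median 1.52). None of 12 neuronal markers passed (3 positive, median -0.16), and none of 10 interneuron markers did (2 positive, median -0.45). Of 11 tested endothelial markers 10 were positive and 1 passed (median 0.45). None passed of 6 pericyte and smooth muscle markers (3 positive, median 0.25) or of 3 tested ependymal and choroid plexus markers (1 positive, median -0.95). Without the 3 libraries under 500000 counts, 1 oligodendrocyte marker, 4 microglial markers and no precursor or endothelial marker passed, in a fit that called 0.102% of all genes in place of 0.773%. CA1 dissociated replicate 3 held 8.51 times the summed oligodendrocyte CPM of the CA1 controls and 3.62 times their microglial CPM, but 0.919 times their astrocyte sum. In that library Slc1a2 and Glul made up 1251 and 997 CPM of the astrocyte sum of 2970.0 CPM. The mean log2 CPM of the 10 genes there differed from that of the CA1 controls by -0.77. DG dissociated replicate 4 held 1.06 times the oligodendrocyte sum, 1.63 times the microglial sum and 1.78 times the astrocyte sum of the DG controls. The part of these other cell types in the astrocyte values was not tested.

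**Figure D3:**
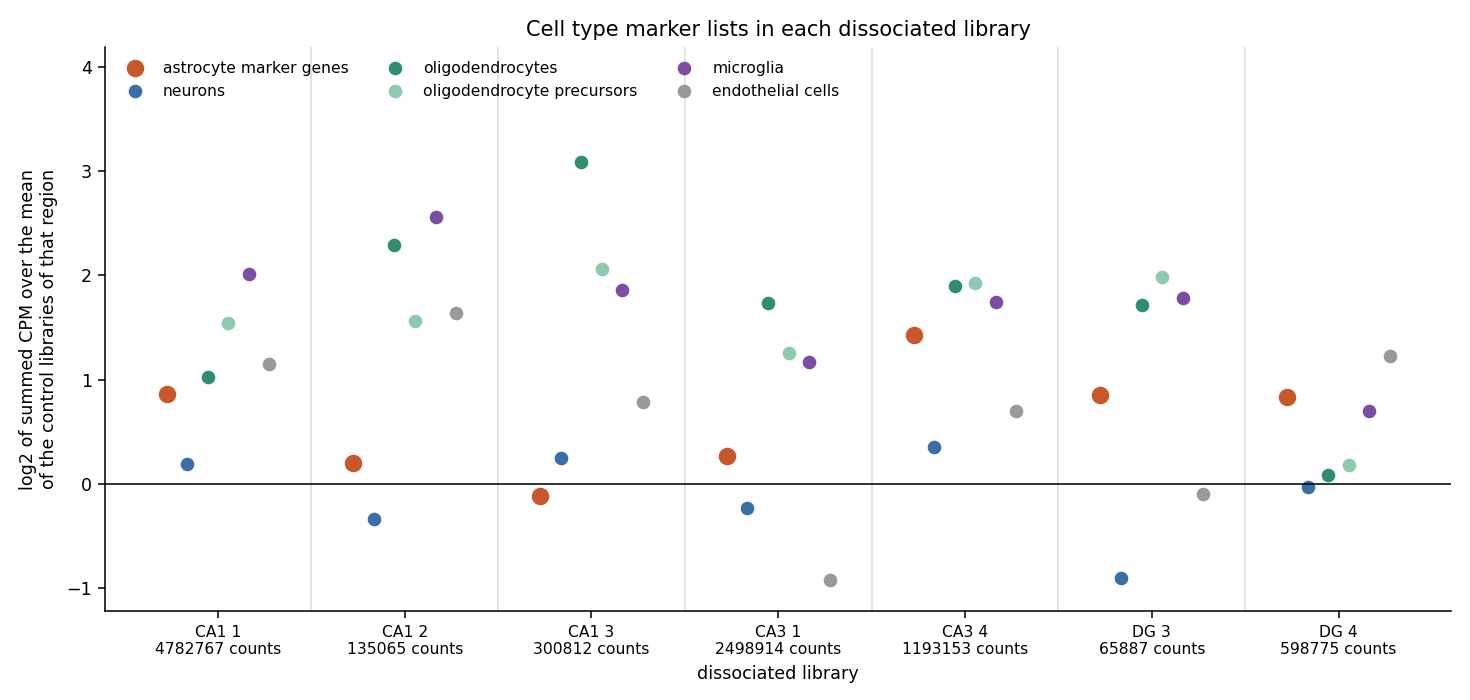
Summed CPM of 6 marker lists in each dissociated library, as log2 of the ratio to the mean of the control libraries of that region. The library's total counts stand under its name, and genes of high CPM weigh most in each sum. The astrocyte points (large, orange) range from -0.12 in CA1 replicate 3 to 1.43 in CA3 replicate 4, and oligodendrocyte and microglial points each lie above them in 6 of the 7 libraries, all but DG replicate 4.

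Other genes of astrocytes had mostly positive fold changes in dissociated tissue, and none passed. Among 12 genes for transport of ions, transmitters and amino acids, all were positive with a median of 0.52, led by the glutamine transporter Slc38a3 (0.83 ± 0.26, edgeR adjusted p = 0.168) and the potassium channel Kcnj10 (0.67 ± 0.24, adjusted p = 0.252). Of 18 genes for metabolism and secreted proteins 17 were positive (median 0.50), with the lipid carrier Apoe at 0.95 ± 0.24 (edgeR adjusted p = 0.0683) and the metallothionein Mt1 at 0.87 ± 0.25 (0.117). Of 16 receptor and transcription factor genes 15 were positive (median 0.63), with Stat3 at 0.96 ± 0.27 (edgeR adjusted p = 0.105) and Rorb at 1.24 ± 0.44 (0.237). Of 10 tested genes for junctions, endfeet and adhesion 7 were positive (median 0.34), with Hepacam at 0.88 ± 0.25 (edgeR adjusted p = 0.118) and Sparc at 0.89 ± 0.35 (0.307). The share of all genes that passed was the 0.773% given above.

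Genes that astrocytes raise in injury and inflammation were also counted, since Gfap belongs to that response. Of 34 such genes 20 were tested, 15 were positive (median 0.53) and none passed over all regions. Without the 3 libraries under 500000 counts, 26 genes were tested and 15 were positive (median 0.22), so the 2 medians cover different genes. Within CA1, 1 of the 20 passed, Cd14 (3.17 ± 0.58, edgeR adjusted p = 0.0332), where 0.191% of all genes did. The CA1 median was 0.68 with 15 positive. Without the libraries under 500000 counts it was 0.01 with 13 of 26 positive, from 1 dissociated CA1 library. In DG, 9 of the 20 were positive with a median of -0.36, where 38.8% of all genes were positive with a median of -0.27. In DG dissociated replicate 3, 29 of the 34 genes were at 0 counts. Over all regions the smallest p were those of Cd14 (1.94 ± 0.50, edgeR adjusted p = 0.0775) and Srgn (1.64 ± 0.53, 0.181), both of which microglia also express. Lcn2 and C3, markers of strongly reactive astrocytes, were at 0 counts in all 7 dissociated libraries, the deepest of which allows up to 0.685 CPM at 0 counts, and had 1 count each in the 7 control libraries together. Of 8 tested genes of radial glia and neural precursors 5 were positive (median 0.11), and the smallest p was that of Thbs4 (-1.57 ± 1.01, edgeR adjusted p = 0.555).

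Between regions, astrocyte levels were compared in the additive model with both treatments. Against DG, CA1 was lower for 9 of 10 genes with a median log2 difference of -0.51 (all genes -0.04), and none passed where 4.06% of genes did. At an unadjusted p under 0.05 there were 3, against 15.7% of all genes, and DESeq2 called 1, against 7.64% of all genes. That gene was Aldh1l1, at 16.9 ± 9.99 CPM in CA1 (SD, n = 6) against 53.8 ± 37.5 CPM in DG (n = 4), a log2 difference of -1.44 ± 0.45 (SE, edgeR adjusted p = 0.0802, DESeq2 adjusted p = 0.0344). In control libraries alone it was -1.003 (edgeR adjusted p = 0.271). Aqp4 differed by -0.90 ± 0.41 (edgeR adjusted p = 0.273) and Slc1a2 by -0.70 ± 0.30 (0.231) over all libraries, and by -0.20 and -0.09 in control libraries alone. Without the 3 libraries under 500000 counts the median over the 10 genes was -0.13 with 3 positive, and without DG control replicate 2 it was -0.16 with 3 positive.

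Between CA3 and DG the median log2 difference was -0.12 with 4 of 10 positive (all genes 0.04), and none passed where 1.77% of genes did, with 0 at an unadjusted p under 0.05 (12.03% of all genes) and 0 by DESeq2 (3.77%). CA1 was lower than CA3 for all 10 genes with a median of -0.36 (all genes -0.06), and none passed where 0.115% of genes did, with 1 at an unadjusted p under 0.05 (5.37% of all genes) and 0 by DESeq2 (0.429%). That one was Gja1, at 87.5 ± 21.3 CPM in CA1 and 171 ± 133 CPM in CA3 (SD, n = 6 and 4), a log2 difference of -0.84 ± 0.39 (SE, edgeR adjusted p = 0.883). Without CA3 dissociated replicate 4 it was -0.24, the median over the 10 genes was -0.12 and 3 genes were positive. These 3 contrasts share libraries with each other.

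A few genes of the other astrocyte, reactive and precursor lists passed between regions. Which cells carried these differences in bulk tissue was not tested. In the same contrasts 4.06% (CA1 against DG) and 1.77% (CA3 against DG) of all genes passed. In CA1 against DG, 1 of 12 transport, 1 of 18 metabolism and 1 of 20 reactive genes passed, and none of 16 receptor and transcription factor or 10 junction genes. The bicarbonate transporter Slc4a4 was lower in CA1 than in DG, at 68.9 ± 19.3 CPM (SD, n = 6) against 220.4 ± 168 CPM (n = 4), by -1.61 ± 0.37 on the log2 scale (edgeR adjusted p = 0.0110). Mt1 was lower in CA1 than in DG by -1.12 ± 0.30 (edgeR adjusted p = 0.0344). From the reactive list, Amigo2 was lower in CA1 than in DG by -3.29 ± 0.87 (edgeR adjusted p = 0.0321), and Serpina3n, a protease inhibitor, was higher in CA3 than in DG by 1.69 ± 0.32 (0.00732). Of the precursor genes, Sox11 was lower in CA1 than in DG by -2.07 ± 0.55 (edgeR adjusted p = 0.0329) and Neurod1 lower in CA3 than in DG by -2.97 ± 0.68 (0.0240), where granule neurons also express Neurod1. No gene of these lists passed between CA1 and CA3, and none of the receptor, transcription factor or junction genes passed between any regions.

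Levels per transcript length set the order of the genes within control tissue. Mean TPM over the 7 control libraries was 825 ± 183 for Glul, 479 ± 116 for Aldoc, 327 ± 76.6 for Slc1a2, 202 ± 50.5 for Gfap and 149 ± 33.9 for Slc1a3 (SD). It was 82.5 ± 16.6 for S100b, 69.9 ± 18.7 for Gja1, 22.9 ± 6.46 for Gjb6, 18.7 ± 10.7 for Aldh1l1 and 18.1 ± 4.82 for Aqp4. Each gene was below the one before it in all 7 control libraries from Glul to S100b and again from Gja1 to Gjb6. S100b was above Gja1 in 6 of 7, Gjb6 above Aldh1l1 in 5 and Aldh1l1 above Aqp4 in 4, so the order of the last 3 did not hold beyond the spread between libraries. On the CPM scale, which does not divide by length, Slc1a2 came first at 1521 ± 257 CPM in control libraries, since its main transcript is 11595 bases long.

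Across the 14 libraries the 10 genes correlated with each other, over points that share depth and dissection as well as treatment. Pearson correlations of log2 CPM over the 45 pairs had a median of 0.58, from -0.24 to 0.96, with 39 positive, and after each group's mean was taken out the median was 0.53. The closest pair was Aqp4 and Slc1a2 (r = 0.96, and 0.95 within groups), followed by Aldoc and Glul (0.88). Aldoc, S100b and Glul formed pairs between 0.64 and 0.88, while Aqp4 and Aldoc stood at 0.33. All 6 negative values involved Gjb6, whose median r with the other 9 was -0.07 in 14 libraries and 0.71 in the 11 libraries over 500000 counts. Of 11504 other genes whose mean reached 5 CPM, the one most like the mean of the 10 was Clu (r = 0.944 over 14 libraries), which encodes the secreted chaperone clusterin. After it came Plxnb1 (0.888), Atp1b2 (0.887), Kif1c (0.887), Paqr8 (0.883), Fads1 (0.881), Ndrg2 (0.880) and Sparcl1 (0.871). In the 11 libraries over 500000 counts Clu again ranked 1, while the genes after it ranked 16, 51, 67, 68, 23, 88 and 11 in the order given. Clu ran from 285 to 658 CPM in control and from 257 to 913 CPM in dissociated libraries, with CA1 replicate 3 its lowest and CA3 replicate 4 its highest dissociated library.

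Among the 7 control libraries, DG replicate 2 was the highest for 8 of the 10 genes, all but Gfap and S100b, and CA1 replicate 3 the lowest for 6. The other DG control, replicate 3, was the lowest for Gja1 and S100b. The 2 DG controls were far apart for some members and alike for others, with Aldh1l1 at 63.0 and 18.6 CPM, Gja1 at 155 and 62.1 CPM and Gfap at 249 and 249.9 CPM.

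Gfap-201, the transcript with the delta ending printed above, made up 5.97%, 11.2% and 7.61% of Gfap TPM in CA1 controls, 8.90% and 7.04% in CA3 controls and 7.83% and 8.67% in DG controls. In dissociated libraries it made up 5.73%, 5.21% and 46.7% in CA1, 10.001% and 7.77% in CA3, and 0% and 4.95% in DG. The 46.7% rests on 29 Gfap counts (CA1 replicate 3) and the 0% on 27 (DG replicate 3), where the other libraries but 1 had 340 or more. The 5 dissociated libraries besides these lay between 4.95% and 10.001%, within or just below the control range. The share differed by 2.04 percentage points with dissociation, the mean of the within-region differences (exact permutation of treatment within regions, two-sided over 720 assignments, p = 0.947). Between regions the exact permutation test gave p = 0.510 for CA1 against DG, 0.222 for CA3 against DG and 0.900 for CA1 against CA3. The smallest p these region tests can give is 0.01 (100 assignments, contrasts with CA1) or 0.0556 (36 assignments, CA3 against DG), which over 12 comparisons is 0.12 or 0.667 for a share that differs alone, so such a difference could not pass.

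Of Slc1a2 TPM, Slc1a2-001 made up between 76.9% and 93.6% in control libraries (median 85.5%) and between 69.0% and 91.4% in dissociated ones (median 84.1%). By estimated counts, which favour its long 3′ end, it held 96.1% to 99.2% and 93.5% to 99.5%. The transcripts with the other ending, Slc1a2-003 and Slc1a2-004, together made up 3.13%, 2.40% and 5.42% of TPM in CA1 controls, 6.75% and 0% in CA3 controls and 2.68% and 3.91% in DG controls. In dissociated libraries they made up 2.40%, 22.3% and 0% in CA1, 5.90% and 1.101% in CA3, and 15.9% and 0% in DG, where the 22.3% and 15.9% stand on 6.12 and 5.65 estimated counts. Slc1a2-002, with the other start, made up 7.35%, 2.14% and 4.08% in CA1 controls, 12.6% and 8.34% in CA3 controls and 12.9% and 0% in DG controls. It was at 0 counts in 6 of 7 dissociated libraries, the deep CA1 replicate 1 among them, and at 31.0% in DG replicate 4. The share of Slc1a2-001 differed by -0.78 points and that of Slc1a2-002 by -1.997 points with dissociation (two-sided exact permutation tests, p = 0.850 and 0.817, adjusted p = 0.947 for each over 4 transcripts). The smallest p between regions was 0.160 for Slc1a2-002 in CA1 against DG (exact permutation test, adjusted p = 0.667 over 12 comparisons, with the same limit).

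**Figure D4:**
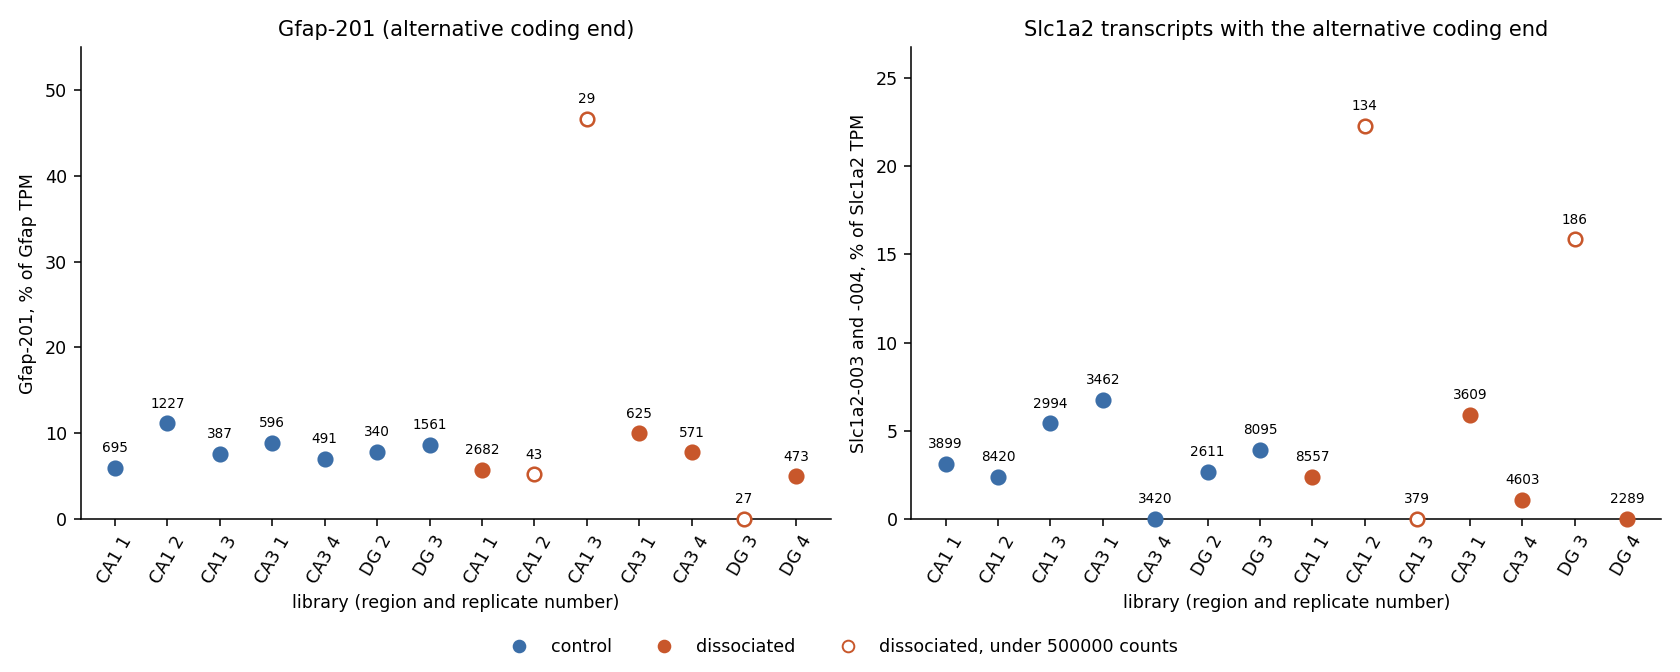
Share of Gfap TPM taken by Gfap-201 (left) and share of Slc1a2 TPM taken by the transcripts with the alternative ending (right) in each library, with the gene's estimated counts above each point. Blue points are control libraries, orange dissociated ones and open points those under 500000 counts. The points that leave the range of the controls upward (46.7% on the left, 22.3% and 15.9% on the right) are open ones with 29 to 186 counts of the gene.

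Fitted as transcripts, none of the 7 tested transcripts of the 2 genes passed between dissociated and control tissue, where 0.00394% of 25388 transcripts did. The log2 fold changes were 0.65 ± 0.41 for Gfap-001, 0.45 ± 0.57 for Gfap-201 and 0.33 ± 0.28 for Slc1a2-001 (SE, edgeR adjusted p = 0.593, 0.812 and 0.696). Gfap-001 was at 0.32 without CA1 dissociated replicate 1, and Slc1a2-001 at 0.11 without CA3 dissociated replicate 4. That of Slc1a2-002 was -4.36 ± 2.40 (adjusted p = 0.530). None was below an unadjusted p of 0.05. None passed between CA1 and DG (0.0354% of transcripts), CA3 and DG (0%) or CA1 and CA3 (0%). Between regions the smallest p were those of Slc1a2-002, in CA1 against DG (-6.83 ± 2.502, edgeR adjusted p = 0.527) and CA3 against DG (-5.87 ± 2.73, adjusted p = 0.637). In DG its estimated counts were 65.6 in control replicate 2 and 148 in dissociated replicate 4. They were 0 in control replicate 3 and in dissociated replicate 3.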

How the data were processed

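The deposited files, which the authors made, hold estimated counts and TPM (scaled to a common total after division by effective length) of 58716 transcripts per library, in kallisto's columns per the file headers, and a gene table of estimated counts that lay within 0.5 of the transcript sums, rounded to whole numbers. The submitters' processing notes list FastQC, cutadapt, kallisto and DESeq2 but no versions. For the build, annotation and strand, nothing is given in the sources used here, and 0 sample columns were left unmapped. Coordinates and sequences were taken from GENCODE M21 (GRCm38) by gene or transcript identifier, and the transcripts shown had the same length there. kallisto divides reads among transcripts that share sequence, so the division between forms of a gene or near-identical copies is an estimate.

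Gene counts were fitted in edgeR 4.0.16 (R 4.3.3, filterByExpr on the 6 groups, minimum count 10, minimum total 15, TMM, quasi-likelihood F test), with region and treatment as additive terms and 10 residual degrees of freedom. Treatment within regions and the interaction were fitted with a separate mean for each group. An adjusted p (Benjamini-Hochberg over all tested features) under 0.05 was called. SEs come from the F statistic, and log2 CPM used a prior count of 2. Transcript counts were rounded and fitted likewise. Shares were compared by exact permutation within regions or treatments for transcripts with a mean share of at least 5%. Alternatives were DESeq2 1.42.0, RLE and upper-quartile scaling, no filter, limma 3.58.1 on log2(TPM + 1), a replicate block, control libraries only, and leaving out libraries. The code was tested on simulated data. A count of 0 allows up to 3 counts, and such limits cover counting error only.

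The members and gene lists were chosen with earlier results of these data known. All 10 members are named. From the other astrocyte, reactive and precursor lists the text names up to 4 called genes per list and contrast by smallest p, or up to 2 where none was called, and the 8 genes most like the members' mean. Results of some items that met these rules are not reported here. Trf and Csf1r were picked after their values were seen, as were Lcn2 and C3.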

Additional observations from a re-analysis of the deposited data

Results flagged for a closer look

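In 24 sets of 7 libraries (the 10 genes and 2 transcript shares, in control and in dissociated libraries), 2 held a library far from the others, and chance gives about 1 in 20 sets. Aldh1l1 in DG control replicate 2 was at 63.0 CPM, where the other 6 control libraries ran from 14.8 to 23.7 CPM. The share of Gfap-201 in Gfap TPM was 46.7% in CA1 dissociated replicate 3, where the other 6 dissociated libraries ran from 0% to 10.001%.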

How the results depend on the processing

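With dissociation, no member passed in the fit reported, where 0.773% of all genes did. By DESeq2 3 passed, with RLE scaling 1, with no filter on low counts 4 and with the replicate block 2. In these fits 3.66%, 1.22%, 1.98% and 2.91% of all genes passed. Between 0 and 2 passed when single libraries were left out, in fits that called 0.28% to 1.83% of all genes. The 2 came without DG dissociated replicate 4, where the share was 1.83%. The members called in any fit were Glul (6 of the 22 fits, the reported one included), Aldoc (4), S100b (3) and Gfap (1), and the cause was not tested. Same-numbered samples deviated together by r between -0.16 and 0.07. With so few libraries per group, this cannot decide whether the numbers pair the samples. In the replicate block within regions Glul stood at 0.95 (adjusted p = 0.00185) and Aldoc at 0.94 (0.00607). All 10 fold changes were positive in every fit but limma on log2(TPM + 1), where Gjb6 stood at -0.74, and the median over all genes was -0.64 there. With RLE scaling the median over all genes moved from -0.11 to -0.01.

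In CA1 against DG, 1 member passed by DESeq2 (7.64% of all genes) and 1 with no filter (5.18%), Aldh1l1 both times, and leaving out single libraries gave 0. With single libraries left out, the members' median in CA3 against DG ran from -0.42 to 0.09, and it turned to 0.093 without CA3 dissociated replicate 1 and to 0.013 without DG control replicate 2. The members' median with dissociation in CA1 turned to -0.28 by limma on log2(TPM + 1), where the median over all genes was -0.59. With single libraries left out, this CA1 median ran from -0.19 (without CA1 dissociated replicate 1) to 0.78. The difference in the share of Gfap-201 turned to -1.63 points without the 3 libraries under 500000 counts and ran from -2.54 (without CA1 dissociated replicate 3) to 4.37 with single libraries left out. That of Slc1a2-001 ran from -3.29 to 1.74 points, and was positive without CA1 control 2 (0.391), CA1 dissociated 2 (0.102), CA3 control 4 (0.375), DG control 3 (1.35) or DG dissociated 4 (1.74). Depth limits the shallow libraries most, where 3 counts are worth 46.8, 20.5 and 9.90 CPM.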
